A study of Rattus norvegicus with 4 samples.

Results

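Angiogenic growth factors and their receptors were examined in the uterus of pregnant Sprague Dawley rats. The list held 10 genes: the vascular endothelial growth factor (VEGF) ligands Vegfa, Vegfb, Vegfc and Pgf, the VEGF receptors Flt1, Kdr and Flt4, the angiopoietins Angpt1 and Angpt2, and the angiopoietin receptor Tek. A member was read where platform annotation gave its symbol alone for a probe set, which held for 9 of the 10 members among 18166 genes in all; Kdr was not analysed here. Each of the 9 had 1 probe set. The rats were adults of 10 to 12 weeks and their uteri were taken on day 5 of pregnancy, in the pre-implantation period. On day 1 they had been fed either ormeloxifene, a contraceptive that binds the oestrogen receptor and modulates it by tissue (a SERM), at 1.25 mg per kg in gum acacia, or the vehicle alone. Each group had 2 biological replicates with 1 Affymetrix array each, and the comparison asks whether transcripts of these genes differed between the treated and the vehicle uterus. The sources used here do not give how many rats stood behind an array, so p-values measure only the spread between these samples. RNA came from whole uterus, where fewer cells of a type and less RNA per cell cannot be told apart.

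VEGF ligands are secreted dimers that bind receptor tyrosine kinases on endothelial cells. Vegfa acts through Kdr and Flt1, Vegfb and Pgf bind Flt1, and Vegfc acts mainly through Flt4 on lymphatic endothelium. Angpt1, made largely by mural and stromal cells, activates Tek and steadies vessels, whereas Angpt2, released by endothelium, can oppose it. In the rodent uterus, oestrogen is known to raise Vegfa and vascular permeability, and vessels of the stroma grow around the implanting embryo.

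The stretches before the gene starts of Vegfa, the principal ligand, and Flt1, the receptor it shares with Vegfb and Pgf, are shown because GC boxes, through which Sp-family factors act, are a known route of oestrogen receptor action at Vegfa. Sequences are from RefSeq on GRCr8, plus strand, 250 bases each, ending at the base before the start: chr9:22452604-22452853 for Vegfa and chr12:12333180-12333429 for Flt1. Capitals mark GGGCGG or, on the other strand, CCGCCC.
Vegfa: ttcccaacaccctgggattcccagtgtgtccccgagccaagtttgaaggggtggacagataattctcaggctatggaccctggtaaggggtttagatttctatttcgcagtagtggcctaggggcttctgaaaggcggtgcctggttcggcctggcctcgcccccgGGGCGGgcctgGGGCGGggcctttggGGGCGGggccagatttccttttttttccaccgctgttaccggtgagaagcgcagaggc
Flt1: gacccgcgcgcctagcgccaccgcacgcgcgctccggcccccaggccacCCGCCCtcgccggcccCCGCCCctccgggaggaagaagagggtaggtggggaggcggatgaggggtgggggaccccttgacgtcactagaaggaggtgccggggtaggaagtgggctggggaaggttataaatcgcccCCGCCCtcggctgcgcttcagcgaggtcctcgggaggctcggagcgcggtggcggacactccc
Both windows held 3 GC boxes. Windows from 250 bases before to 50 after the start were searched on both strands. All 7 members with an entry (Vegfa, Vegfb, Vegfc, Pgf, Flt1, Kdr and Flt4) had a window with at least 1 GC box, from 1 box in Kdr to 4 in Vegfb. Counted by window this was 7 of 8, against 33.1% of 33469 RefSeq windows. A second window of Vegfa, at another start, had 0. These windows were rich in G and C, at 57.3% to 75.0% against a median of 51.7%, and a GC box is more frequent in such sequence. Of the hypoxia response core only the form ACGTG was searched. It was in 0 of the 8 windows of these members (19.3% of all windows). The form GCGTG was not searched, and the Flt1 stretch above holds its complement CACGC, so absence of a core is not shown. The full palindromic oestrogen response element, searched on both strands, was in 0 of the 8 (0.0269% of all windows). Angpt1, Angpt2 and Tek have no entry in the table. These matches are descriptions of letters; the arrays measured no binding.

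Values below are log2 signals after quantile normalization, so that a difference of 1 is a doubling. Each difference is ormeloxifene minus vehicle with its standard error from limma, and its p is adjusted by the Benjamini-Hochberg method over the 18166 genes. The signal of a probe set depends on its own probes. Percentiles of mean signal over all genes therefore describe the brightness of probe sets and give no order of transcript abundance. The members' probe sets lay between the 24.3rd percentile (Angpt1) and the 87.4th (Vegfb).

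Tissue markers, chosen with earlier results known, were read first. The oestrogen receptor Esr1 and the progesterone receptor Pgr had mean signals at the 97.0th and the 95.4th percentile, and the vascular cadherin Cdh5 at the 91.5th. Probe sets of blastocyst and trophoblast markers lay from the 15.2nd percentile for Pou5f1 to the 58.0th for Krt7. Medians of the differences were -0.08 over 9 stromal markers (Hand2 at -0.31 ± 0.21, Hoxa10 at 0.41 ± 0.31 and Pgr at -0.25 ± 0.22), -0.14 over 9 epithelial (Krt18 at -0.40 ± 0.31, Foxa2 at -0.21 ± 0.22, Krt19 at 0.19 ± 0.23), 0.14 over 6 leucocyte (Cd3e at 0.21 ± 0.21, Csf1r at 0.17 ± 0.20, Adgre1 at -0.15 ± 0.21) and -0.12 over 6 blastocyst and trophoblast markers, 3 higher (Gata3 at 0.22 ± 0.20, Nanog at 0.15 ± 0.20 and Pou5f1 at 0.07 ± 0.20) and 3 lower in value (Tfap2c at -0.43 ± 0.23, Krt7 at -0.45 ± 0.32 and Cdx2 at -0.31 ± 0.23). Of these 30 markers, 0 passed the adjusted threshold. Deposited values were exactly equal at 488 probe sets between both arrays numbered 1, at 551 between both numbered 2 and at 0 in each of the other pairs. Same-numbered arrays may therefore share a processing batch that holds both groups, although the labels name none. The main limma fit used the group only. The number entered as a block in an alternative fit, and differences within each number stand beside the pooled ones.

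No member differed detectably between the groups. By limma, 0 of 9 members passed an adjusted p of 0.05, where 0% of all genes did, and 0 had an unadjusted p under 0.05, where 2.20% of all genes did. With the replicate number as a block the counts were again 0 and 0, against 0.0275% and 6.76% of all genes. Of the 9, 6 were higher and 3 lower in value with ormeloxifene, where 53.4% of all genes were higher; the median difference was 0.13 against 0.02 over all genes. The 95% intervals of all 9 lay within -1 and 1, as did those of 90.3% of genes (with the block, 9 of 9 and 97.3%). On the values as deposited this held for 6 of 9, against 77.3% of genes, since the intervals of Angpt1 and Tek reached 1.12 and 1.13 and that of Vegfb reached -1.003. With an array left out, intervals reached -1.27 (Vegfa) and 1.30 (Angpt1). A doubling or a halving thus fell outside the limma intervals of all 9 members on all 4 arrays after quantile normalization or median centring. The same did not hold in the other settings just named. These intervals draw partly on the variance of other genes, with 2 residual degrees of freedom in the main fit, 7.55 after moderation. Intervals from each member's own spread alone were not computed. On simulated arrays limma called 8 of 100 genes changed by 1, so a doubling of a member could go undetected. Leaving out vehicle replicate 1 turned the median over the members to -0.15, and leaving out vehicle replicate 2 made it 0.26.

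**Figure D1:**
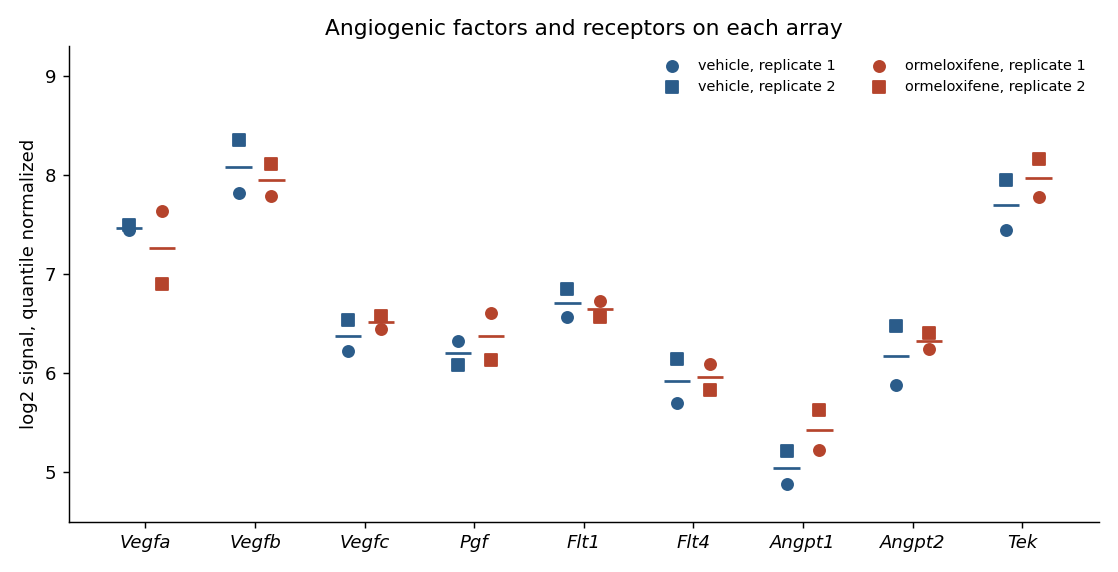
Log2 signal after quantile normalization (vertical axis) of the 9 members on the 4 arrays; blue points are vehicle, red points ormeloxifene, circles replicate 1, squares replicate 2, and short lines the group means. Groups overlap for every member but Angpt1, whose lower ormeloxifene array (5.22) sits just above its higher vehicle array (5.21).

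Vegfa, the main driver of endothelial growth and permeability, read 7.64 and 6.89 on ormeloxifene arrays 1 and 2 and 7.44 and 7.49 on vehicle arrays 1 and 2. On this scale ormeloxifene replicate 2 was the lowest of the 4 and ormeloxifene replicate 1 the highest, so the vehicle arrays lay between them. The means were 7.26 ± 0.53 and 7.47 ± 0.03 (SD, n = 2 arrays each), a difference of -0.20 ± 0.28 by limma (95% interval -0.85 to 0.45, adjusted p = 1.00). That interval spans 0.556-fold to 1.36-fold. Within number 1 the difference was 0.19 and within number 2 it was -0.60. Without ormeloxifene replicate 2 it was 0.17. On the values as deposited vehicle replicate 2 was the highest, at 7.69 against 7.47 for ormeloxifene replicate 1, and the vehicle SD was 0.32. With median centring vehicle replicate 2 was also the highest, at 7.64 against 7.59.

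Vegfb, a ligand of Flt1 linked to fatty acid handling and vessel survival, read 7.79 and 8.11 with ormeloxifene and 7.81 and 8.35 with vehicle. Both arrays numbered 2 were above both numbered 1, and the groups overlapped. The difference was -0.13 ± 0.26 (-0.73 to 0.47), with -0.02 within number 1 and -0.24 within number 2. Without vehicle replicate 2 it was 0.14, and without ormeloxifene replicate 1 it was 0.03.

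Vegfc, the lymphatic growth factor, read 6.45 and 6.58 with ormeloxifene and 6.23 and 6.53 with vehicle. Vehicle replicate 1 was lowest and the other three lay within 0.13 of each other, so the groups overlapped. The difference was 0.13 ± 0.22 (-0.38 to 0.64), made up of 0.22 within number 1 and 0.05 within number 2, and it was -0.02 without vehicle replicate 1.

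Pgf, the placental growth factor, read 6.61 and 6.13 with ormeloxifene and 6.32 and 6.08 with vehicle. Here both arrays numbered 1 were the higher ones, the reverse of Vegfb. The difference was 0.17 ± 0.24 (-0.40 to 0.73), with 0.29 within number 1 and 0.05 within number 2; without ormeloxifene replicate 1 it was -0.07. On the values as deposited Pgf did not overlap, at 6.48 and 6.27 against 6.20 and 6.17; on that scale it was the only member of the 9 to do so, where 17.2% of all genes did. The 4 VEGF ligands thus split evenly, 2 higher and 2 lower in value, with a median of 0.00.

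Flt1, which binds Vegfa, Vegfb and Pgf and in its soluble form traps them, read 6.73 and 6.56 with ormeloxifene and 6.57 and 6.85 with vehicle. Ormeloxifene replicate 1 lay between the vehicle arrays, and ormeloxifene replicate 2 lay beside the lower of them. The difference was -0.06 ± 0.22 (-0.57 to 0.44), and its sign was opposite within number 1 (0.16) and number 2 (-0.29). The sources used here do not give which Flt1 transcripts the probe set covers, so the soluble and membrane forms were not told apart.

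Flt4, the receptor of Vegfc on lymphatic vessels, read 6.09 and 5.83 with ormeloxifene and 5.70 and 6.14 with vehicle. Both ormeloxifene values lay between the vehicle values. The difference was 0.04 ± 0.24 (-0.52 to 0.60), from 0.38 within number 1 to -0.31 within number 2. Leaving out ormeloxifene replicate 1 gave -0.09 and leaving out vehicle replicate 1 gave -0.18. For both VEGF receptors measured, the estimate was small because opposite differences within the numbers cancelled.

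Angpt1, the activating ligand of Tek, had the largest difference of the 9 with all 4 arrays. It read 5.22 and 5.62 with ormeloxifene and 4.88 and 5.21 with vehicle. Its groups did not overlap, by a margin of about a hundredth of a log2 unit, and it was the only member of the 9 with this property (11.1%), against 25.7% of all genes. The means were 5.42 ± 0.28 and 5.05 ± 0.24 (SD, n = 2 arrays each), a difference of 0.38 ± 0.24 or 1.30-fold by limma (95% interval -0.19 to 0.94, adjusted p = 1.00). Within the numbers it was 0.34 and 0.41, and with the number as a block its unadjusted p was 0.0510 (adjusted p = 0.737). Of all genes, 8.83% had a difference of at least this size. The difference was 0.18 without ormeloxifene replicate 2 and 0.21 without vehicle replicate 1, and 0.58 without ormeloxifene replicate 1. In the first of these settings Pgf (0.40) and in the second Vegfb (-0.40) differed more. On the values as deposited the groups of Angpt1 overlapped.

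Smooth muscle markers stood beside Angpt1, since mural cells are a source of it. In RNA of whole uterus these markers do not tell mural cells of vessels from the muscle of the uterine wall. They were higher in value in 6 of 6 measured, where 53.4% of all genes were. The median was 0.36 against 0.02 over all genes, with Synpo2 at 0.45 ± 0.22, Myh11 at 0.37 ± 0.22 and Tagln at 0.34 ± 0.22. Their mean log2 level was 10.59 and 10.40 on the ormeloxifene arrays and 10.30 and 10.07 on the vehicle arrays. Pericyte markers were higher in 6 of 8 and lower in 2, at a median of 0.16. Those with the smallest p were all among the higher ones: Rgs5 at 0.47 ± 0.22, Mcam at 0.34 ± 0.23 and Pdgfrb at 0.17 ± 0.22. The mean level of the pericyte markers was 8.36 and 8.07 with ormeloxifene against 8.12 and 8.0003 with vehicle. Of these 14 markers 0 passed the adjusted threshold, and their part in the value of Angpt1 was not tested.

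Angpt2, the context-dependent antagonist of Tek, read 6.24 and 6.40 with ormeloxifene and 5.88 and 6.47 with vehicle. Both ormeloxifene values lay between the vehicle values, which were 0.59 apart. The difference was 0.15 ± 0.25 (-0.45 to 0.74), with 0.36 within number 1 and -0.07 within number 2, and without vehicle replicate 1 it was -0.15. The log2 signal of Angpt2 minus that of Angpt1 on an array shows unequal change, not which is more abundant. It was 1.02 and 0.78 on the ormeloxifene arrays and 1.01 and 1.26 on the vehicle arrays. The groups differed by -0.23 in this quantity (exact permutation test, 2-sided, p = 0.667, where the design allows no p below 0.333), with 0.02 within number 1 and -0.48 within number 2. A design of this size cannot show whether the balance of the ligands differed.

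Tek, the angiopoietin receptor of endothelium, read 7.78 and 8.16 with ormeloxifene and 7.45 and 7.95 with vehicle. In each number the ormeloxifene array was the higher one, but ormeloxifene replicate 1 lay below vehicle replicate 2. The difference was 0.27 ± 0.26 (-0.33 to 0.87), or 1.21-fold, with 0.33 and 0.21 within the numbers. It ranged from 0.02 without vehicle replicate 1 to 0.52 without vehicle replicate 2. All 3 members of the angiopoietin pathway were higher in value with ormeloxifene, and 0 of them passed the test.

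**Figure D2:**
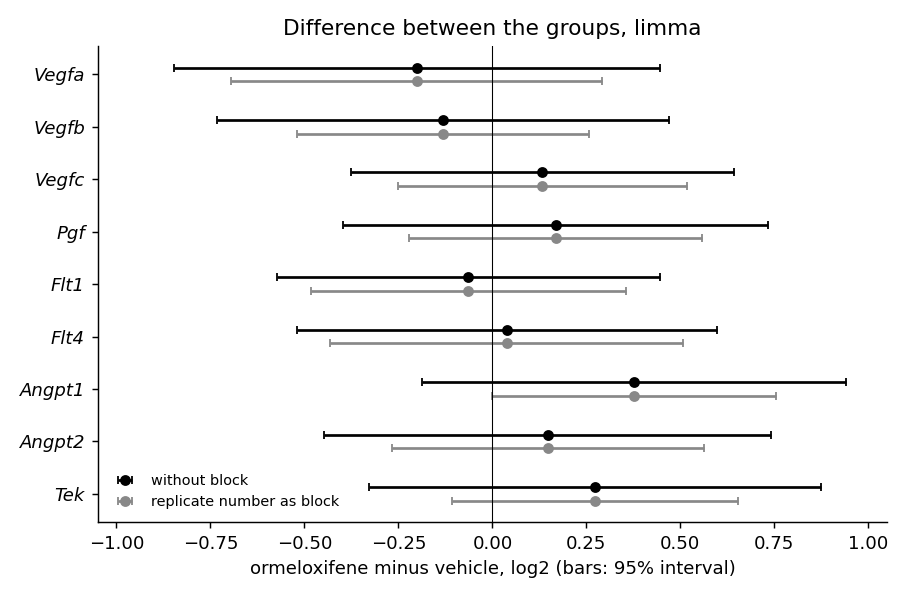
Ormeloxifene minus vehicle (horizontal axis, log2) for the 9 members by limma, with 95% intervals, without a block (black) and with the replicate number as a block (grey). Every interval crosses 0 and lies within -1 and 1; with the block, that of Angpt1 starts at -0.0021.

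Differences between replicates of a group were as large as those between groups. Replicate 2 exceeded replicate 1 in both groups for Vegfb (0.32 with ormeloxifene and 0.54 with vehicle), Vegfc (0.13 and 0.31), Angpt1 (0.40 and 0.33), Angpt2 (0.16 and 0.59) and Tek (0.38 and 0.50), and was below it in both for Pgf (-0.47 and -0.24). In Vegfa, Flt1 and Flt4 the sign differed between the groups. The same sign in both groups thus held for 6 of 9 members, against 66.3% of all genes. Averaged over the groups, replicate 2 minus replicate 1 was larger in size than ormeloxifene minus vehicle in 7 of 9 members, against 63.9% of genes. The median size of the former was 0.35 over the members and 0.22 over all genes, and of the latter 0.15 and 0.13. The count of signs depends on the scale. On the values as deposited, replicate 2 exceeded replicate 1 in both groups for Flt1 (0.10 with ormeloxifene and 0.60 with vehicle) and Flt4 (0.0087 and 0.59). Only Vegfa differed in sign there.

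Within a number, ormeloxifene and vehicle differed in the same direction in both numbers for 5 of 9 members (Vegfb, Vegfc, Pgf, Angpt1 and Tek), where 52.3% of all genes did. The median over the members was 0.29 within number 1 and -0.07 within number 2. Number 1 held 8 of 9 differences above 0, against 56.2% of all genes, and number 2 held 4 of 9, against 47.3%.

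**Figure D3:**
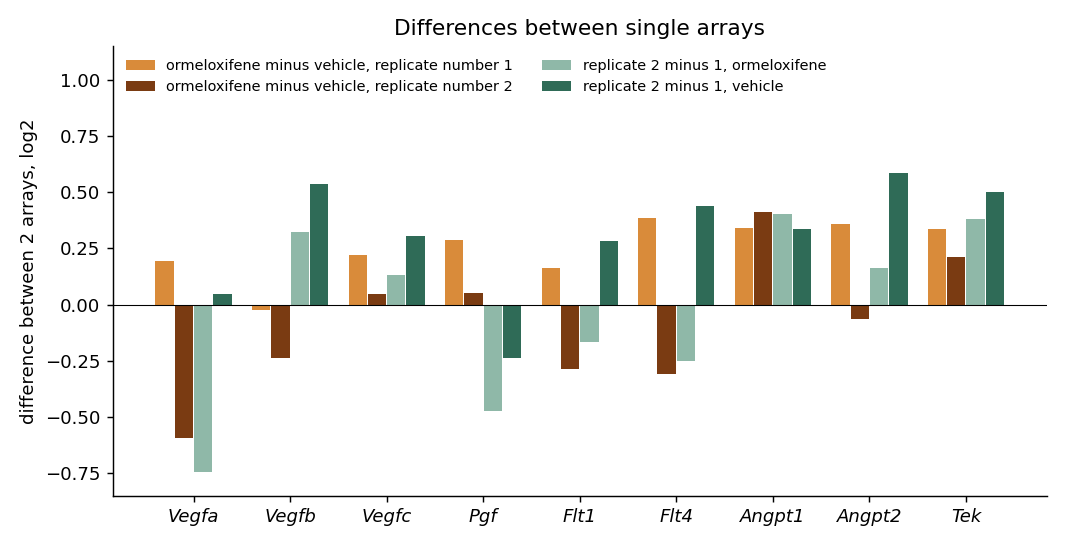
Differences between pairs of single arrays (vertical axis, log2) for the 9 members: ormeloxifene minus vehicle within each replicate number (orange and brown) and replicate 2 minus replicate 1 within each group (light and dark green). Orange and brown bars point opposite ways for Vegfa, Flt1, Flt4 and Angpt2, and green bars reach 0.59 (Angpt2, vehicle) and -0.74 (Vegfa, ormeloxifene).

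Vascular endothelial markers, which show the cells that carry Flt1, Tek and most Angpt2, were higher in value in 12 of 15 measured, and 0 passed the test. Of all genes 53.4% were higher. The median was 0.08 against 0.02 over all genes. Examples are Cdh5, the junctional cadherin, at 0.25 ± 0.21, the lectin Clec14a at 0.21 ± 0.22, and the transcription factor Sox18 at -0.26 ± 0.20. Their mean log2 level was 7.31 and 7.24 with ormeloxifene and 7.16 and 7.24 with vehicle. Lymphatic markers, beside Vegfc and Flt4, had a median of 0.02 over 6 measured, with Prox1 at -0.10 ± 0.20, Pdpn at 0.05 ± 0.20 and Reln at -0.05 ± 0.21, and a mean level of 6.74 and 6.72 against 6.70 and 6.77. Their part in the members' values was not tested.

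Other genes of both pathways, coreceptors and intracellular relays, were measured for 24 of 30 symbols. Of these 16 were higher and 8 lower in value, where 53.4% of all genes were higher. The median was 0.10 against 0.02 over all genes, and 0 passed the test. Vegfd, a further ligand of Flt4, read 7.47 and 6.95 with ormeloxifene and 6.89 and 6.80 with vehicle, a difference of 0.36 ± 0.24. Pik3r1, the regulatory subunit of phosphoinositide 3-kinase, differed by 0.39 ± 0.20 and the adaptor Nck1 by -0.42 ± 0.24. The VEGF coreceptors Nrp1 and Nrp2 differed by 0.10 ± 0.22 and 0.16 ± 0.22, and Tie1, the partner of Tek, by 0.20 ± 0.20; they were named after their values were seen.

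Regulators of the hypoxia response, which controls Vegfa in many tissues, were all measured. Of the 10, 6 were higher, against 53.4% of all genes, at a median of 0.07 against 0.02. Hif3a differed by 0.48 ± 0.21, its dimer partner Arnt2 by 0.37 ± 0.21 and Hif1a by -0.20 ± 0.23; 0 passed the test.

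Angiogenic ligands and inhibitors outside both families had a median of -0.01 over 16 measured. Hgf, the hepatocyte growth factor, which also acts on endothelium, read 6.66 and 6.64 with ormeloxifene and 7.17 and 7.66 with vehicle. Both ormeloxifene arrays were below both vehicle arrays, by -0.51 within number 1 and -1.03 within number 2. The difference was -0.77 ± 0.24 (95% interval -1.32 to -0.22), with an unadjusted p of 0.0129 that did not hold after adjustment by limma (adjusted p = 1.00). The vasodilator peptide Adm differed by 0.51 ± 0.27 and Angptl4 by 0.26 ± 0.23. Hgf was the 1 gene of these 16 with an unadjusted p under 0.05, where 2.20% of all genes had one; with the number as a block the count was 2, against 6.76% of all genes.

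**Figure D4:**
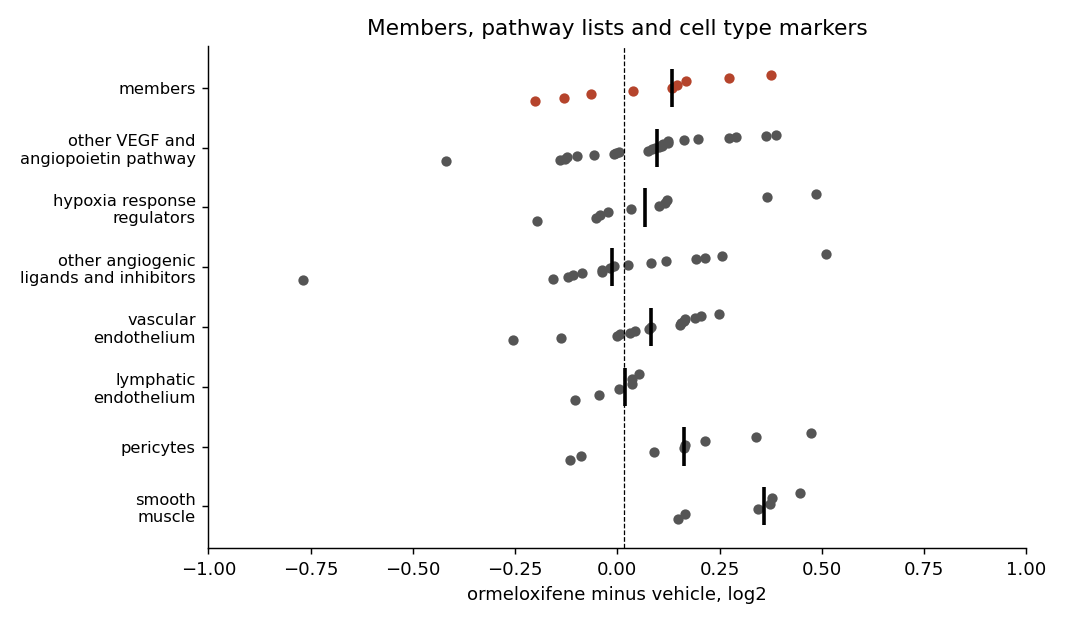
Ormeloxifene minus vehicle (horizontal axis, log2) for each gene of the members (red) and of 7 lists (grey); heavy bars are list medians and the dashed line is the median of all genes (0.02). The members run from -0.20 (Vegfa) to 0.38 (Angpt1), and Hgf, at -0.77, lies farthest out.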

How the data were processed

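Total RNA of whole uterus was labelled from 100 ng and hybridised to 4 arrays, per the labels' protocols. The authors deposited log2 values for 36685 probe sets, made with Affymetrix Expression Console per the submitters' processing notes; the sources used here give no version, summary method or build, and the log2 scale was read from the range (0.92 to 13.59). Column medians were 5.67 and 5.93 with ormeloxifene and 5.72 and 5.84 with vehicle, so quantile normalization was applied. Annotation gave a single symbol to 18511 probe sets, several to 575 and none to 17599; the brightest probe set stood for a gene, which gave 18166 genes, of which 18059 matched GRCr8 by gene number. limma 3.58.1 (R 4.3.3, lmFit and eBayes, 2-sided) was fitted to all genes, with 2 residual degrees of freedom, 7.55 after moderation. On simulated arrays of 18166 genes without a number effect it called 8 of 100 genes changed by 1, 89 of 100 changed by 2 and 6 unchanged genes. The number of arrays limits the precision. Deviations of same-numbered arrays from their group means correlated at 0.475 across genes. Members, lists and rules were chosen with earlier results of these data known; the GC box search was added after the values were seen. All members were named, and of each list the 3 genes with smallest p. Alternatives were other scalings, the replicate block, leaving out each array, averaged probe sets, a filter on dim genes and a variance trend.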

Additional observations from a re-analysis of the deposited data

How the results depend on the processing

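Of 90 recomputed differences (9 members under 10 alternatives), 80 kept their direction and 10 turned, and 0 passed the adjusted threshold; the smallest adjusted p was 0.737, that of Angpt1 with the replicate block. The replicate block, averaged probe sets, the filter on dim genes and the variance trend cannot change a member's difference, only its error. Their kept directions were therefore fixed in advance, and only the other scalings and the left-out arrays could turn one. All 10 that turned did so when an array was left out, where 1 group is a single array assumed to vary like the other. Without ormeloxifene replicate 1, Vegfb was 0.03, Pgf -0.067 and Flt4 -0.09; without ormeloxifene replicate 2, Vegfa was 0.17 and Flt1 0.02. Without vehicle replicate 1, Vegfc was -0.020, Flt4 -0.18 and Angpt2 -0.15; without vehicle replicate 2, Vegfb was 0.14 and Flt1 0.078. Angpt1 (0.18 to 0.58) and Tek (0.02 to 0.52) kept their direction under all 10, including each left-out array. With an array left out, the ranges were -0.57 to 0.17 for Vegfa, -0.40 to 0.14 for Vegfb, -0.020 to 0.29 for Vegfc, -0.067 to 0.40 for Pgf, -0.21 to 0.078 for Flt1, -0.18 to 0.26 for Flt4 and -0.15 to 0.44 for Angpt2. The median over the members ran from -0.15 to 0.26 when an array was left out. Angpt2 minus Angpt1 differed between groups by -0.36 to -0.10 when one was left out and by -0.25 on deposited values. Genes called over the whole table numbered 0 in the main analysis and on deposited values, 1 with median centring, 1 with probe sets averaged, 4 with dim genes dropped (14533 tested), 3 with a variance trend, 5 with the replicate block, and 0 to 3 with an array left out; 0 were members. The cause of these shifts was not tested. The deposited values carry no measure of signal over background.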
